A study of Homo sapiens with 8 samples.

Results

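The heat shock proteins and DNAJ co-chaperones of 2 human colorectal cancer lines were followed as 1 set of genes, picked by name from a deposited table of counts. Every row was taken whose symbol is HSPA, HSPB, DNAJA, DNAJB or DNAJC and a number. For HSPA, a final A, B or L was also allowed. Symbols with other endings, such as DNAJC25-GNG10, were left out. Added by name were HSP90AA1, HSP90AB1, HSP90B1, HSPA4L, HSPH1, HSPD1, HSPE1, BAG3, CHORDC1, FKBP4, STIP1, CRYAB, SERPINH1 and HSF1. This gave 79 genes of the 57169 rows in the table. The rule uses names alone, but the members were chosen with earlier results of these data known. The 79 genes comprised 13 of the HSP70 family, 3 of the HSP110 family, 3 of the HSP90 family, 9 small heat shock proteins, the chaperonin pair HSPD1 and HSPE1, 5 co-chaperones and collagen chaperones, the regulator HSF1, and 4 DNAJA, 13 DNAJB and 26 DNAJC genes.

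The 8 libraries came from SW620 cells treated with AFZC, SW620 cells treated with 5-fluorouracil (5-FU), HCT116 cells treated with AFZC and HCT116 cells treated with 5-FU, with 2 libraries in each of the 4 groups. AFZC is the submitters' name for a nanodrug which, by the series title, is a metal-organic framework that encapsulates 5-FU and carries an aptamer. 5-FU is the thymidylate synthase inhibitor long used against colorectal cancer. Each agent was given for 24 h at a dose the design text calls the IC50 of that agent in that line. SW620 was derived from a lymph node metastasis of a colorectal adenocarcinoma and HCT116 from a colorectal carcinoma. All 4 groups had received 5-FU in some form and no untreated cells are analysed here, so every treatment difference is AFZC relative to free 5-FU. Each line stands for itself. Separate cultures are not named for the 2 libraries of any group, and p-values therefore reflect the variation from library to library, part of which may be technical.

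HSP70 proteins bind unfolded stretches of other proteins in a cycle driven by ATP. J-domain proteins, which carry the DNAJ names, bring clients to HSP70 and speed up ATP hydrolysis, and HSP110 proteins and BAG3 act as nucleotide exchange factors that release the client. HSP90 takes up many kinases and receptors from HSP70 with the help of STIP1, FKBP4 and CHORDC1, and small heat shock proteins hold unfolded clients without ATP. The endoplasmic reticulum and mitochondria have HSP70 and J-domain members of their own. HSF1 binds heat shock elements in front of many of these genes when unfolded protein accumulates, whereas HSPA5 and HSP90B1 of the endoplasmic reticulum follow the unfolded protein response through the endoplasmic reticulum stress element. Carcinoma cells, colorectal ones included, commonly hold high levels of HSP90 and HSP70.

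Total counts ran from 31991561 to 40590291 per library, and the 79 genes held 1.04% to 1.44% of them. Of the 79 genes, 71 passed the filter on low counts (edgeR's filterByExpr with a minimum count of 10), as part of 21378 genes tested. The 8 others are given by their counts at the end. Levels are CPM, counts scaled to 1e6 per library with TMM factors, and a gene was called when its adjusted p in edgeR's quasi-likelihood test was under 0.05. Colorectal epithelium markers had counts for 7 to 8 of 8 genes in every library, summing to 4043 to 4522 CPM in SW620 under AFZC, 12610 to 13790 CPM in SW620 under 5-FU, 3392 to 5436 CPM in HCT116 under AFZC and 2604 to 3213 CPM in HCT116 under 5-FU. The large gap in SW620 lay in the keratins: KRT8 had 2231 and 1643 CPM in SW620 under AFZC, against 7584 and 8338 CPM in SW620 under 5-FU (log2 fold change -2.04 ± 0.26 (SE), adjusted p = 2.79e-04). VIL1, CDH17 and LGALS4 stayed at or under 1.96 CPM in all HCT116 libraries, so these 3 markers were nearly absent from HCT116. Of 8 markers of other cell types, 3 to 6 had counts, summing to 46.9 to 89.5 CPM. VWF, an endothelial marker, had 13.6 and 10.5 CPM in SW620 under AFZC, against 3 and 3.23 CPM in SW620 under 5-FU (log2 fold change 1.95 ± 0.29 (SE), adjusted p = 7.46e-04). LUM, a fibroblast marker, was at 20.9 to 43.2 CPM in SW620 and at 0 in HCT116. COL1A1, a collagen gene on the same list, went the other way, with 43.7 to 58.2 CPM in HCT116 and 19.2 to 28.2 CPM in SW620. CD3E and PTPRC, of T cells and leukocytes, were at or under 0.0689 CPM in every library. In bulk RNA, fewer cells of a kind and less RNA per cell cannot be told apart.

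Per kilobase of exon, cytosolic HSP90 and its partner HSPA8 led the set. Averaged over the 4 groups, HSP90AB1, the constitutive HSP90, reached 633 CPM per kb, HSP90AA1, the inducible form, 349.8, and HSPA8, the constitutive HSP70 of the cytosol, 288. HSP90B1 (182), HSPD1 (172), HSPB1 (167) and HSPA5 (166 CPM per kb) followed closely. STIP1 came next at 83.9 CPM per kb, and DNAJA1 (67.4) and DNAJB1 (61) were the most abundant J-domain genes. The order differed between groups: HSPA8 stood at 174 CPM per kb in SW620 under AFZC and 446 in SW620 under 5-FU.

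The heat shock element, the site that HSF1 binds, was searched in the promoters that could be matched to members. RefSeq promoters (GRCh38.p14, 250 bases before to 50 after the annotated start) matched 67 of the 79 genes by symbol. The element was spelled as 3 alternating units, GAANNTTCNNGAA or TTCNNGAANNTTC, on both strands. Only exact matches counted. A member without a match can therefore still carry a less regular element, or one outside these bases. It was found in 9 of the 67 members (13.4%) and in 166 of all 27305 genes with a promoter (0.608%). The 9 were CHORDC1, DNAJA1, DNAJB6, HSP90AA1, HSP90AB1, HSPA6, HSPA8, HSPD1 and SERPINH1. The 6 below are those that were also called in SW620, printed 5′ to 3′ on the gene's own strand with the matched bases in capitals. The RefSeq start can lie inside the span the deposited table gives for a gene, as for HSP90AB1 and DNAJB6. The windows lie at chr11:123062154-123062386 (minus strand), chr1:161524441-161524503 (plus strand), chr6:44247753-44247868 (plus strand), chr7:157336848-157336910 (plus strand), chr11:90223062-90223134 (minus strand) and chr2:197500043-197500090 (minus strand), in that order. CHORDC1 holds 3 matches that overlap each other and HSPD1 holds 2 that overlap. HSP90AB1 and HSPA8 each hold 2 separate ones.
HSPA8: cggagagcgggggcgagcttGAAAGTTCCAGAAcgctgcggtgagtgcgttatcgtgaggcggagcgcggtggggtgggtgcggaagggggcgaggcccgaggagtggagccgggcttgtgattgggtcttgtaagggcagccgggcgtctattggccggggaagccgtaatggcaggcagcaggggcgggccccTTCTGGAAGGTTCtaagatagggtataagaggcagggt
HSPA6: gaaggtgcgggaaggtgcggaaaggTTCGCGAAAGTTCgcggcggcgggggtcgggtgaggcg
HSP90AB1: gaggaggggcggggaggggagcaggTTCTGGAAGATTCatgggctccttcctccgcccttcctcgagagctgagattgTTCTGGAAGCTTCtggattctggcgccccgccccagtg
DNAJB6: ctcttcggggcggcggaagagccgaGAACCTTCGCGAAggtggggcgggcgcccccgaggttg
CHORDC1: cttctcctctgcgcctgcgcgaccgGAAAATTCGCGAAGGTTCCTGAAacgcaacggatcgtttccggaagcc
HSPD1: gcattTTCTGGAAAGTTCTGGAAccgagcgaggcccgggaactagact

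The endoplasmic reticulum stress element, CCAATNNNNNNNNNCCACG on either strand, was found in 25 of the 27305 genes (0.0916%) and in 2 members, HSPA5 and HSP90B1, the main HSP70 and HSP90 of that compartment. Both are shown because HSP90B1 was lower under AFZC in HCT116 and HSPA5 is its nearest counterpart. The windows lie at chr9:125241366-125241434 (minus strand) and chr12:103930191-103930364 (plus strand), and the second match of HSP90B1 reads on the opposite strand. A match of letters is a description and shows no binding.
HSPA5: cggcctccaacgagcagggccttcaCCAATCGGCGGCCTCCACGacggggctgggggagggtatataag
HSP90B1: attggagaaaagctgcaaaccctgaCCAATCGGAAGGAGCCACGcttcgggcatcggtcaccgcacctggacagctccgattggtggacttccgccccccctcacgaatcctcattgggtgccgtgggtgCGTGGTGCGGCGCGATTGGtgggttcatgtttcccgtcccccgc

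**Figure D1:**
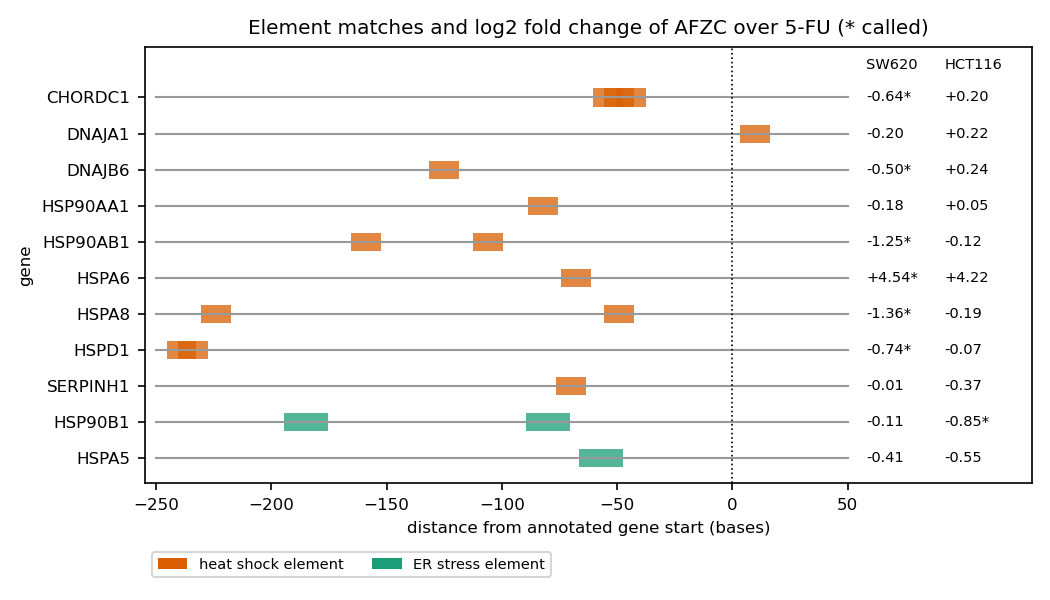
Matches of the heat shock element (orange) and the endoplasmic reticulum stress element (green) by distance in bases from the annotated gene start, for the members with a match. The columns on the right give the log2 fold change of AFZC over 5-FU in SW620 and in HCT116, with an asterisk where the gene was called. HSPA8, HSP90AB1, HSPD1, CHORDC1 and DNAJB6 carry heat shock elements and were called lower in SW620, whereas HSPA6 carries it and was called higher there. DNAJA1, HSP90AA1 and SERPINH1 carry it and were called in neither line. With the other element, HSP90B1 was called lower in HCT116 and HSPA5 was called in neither line.

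**Figure D2:**
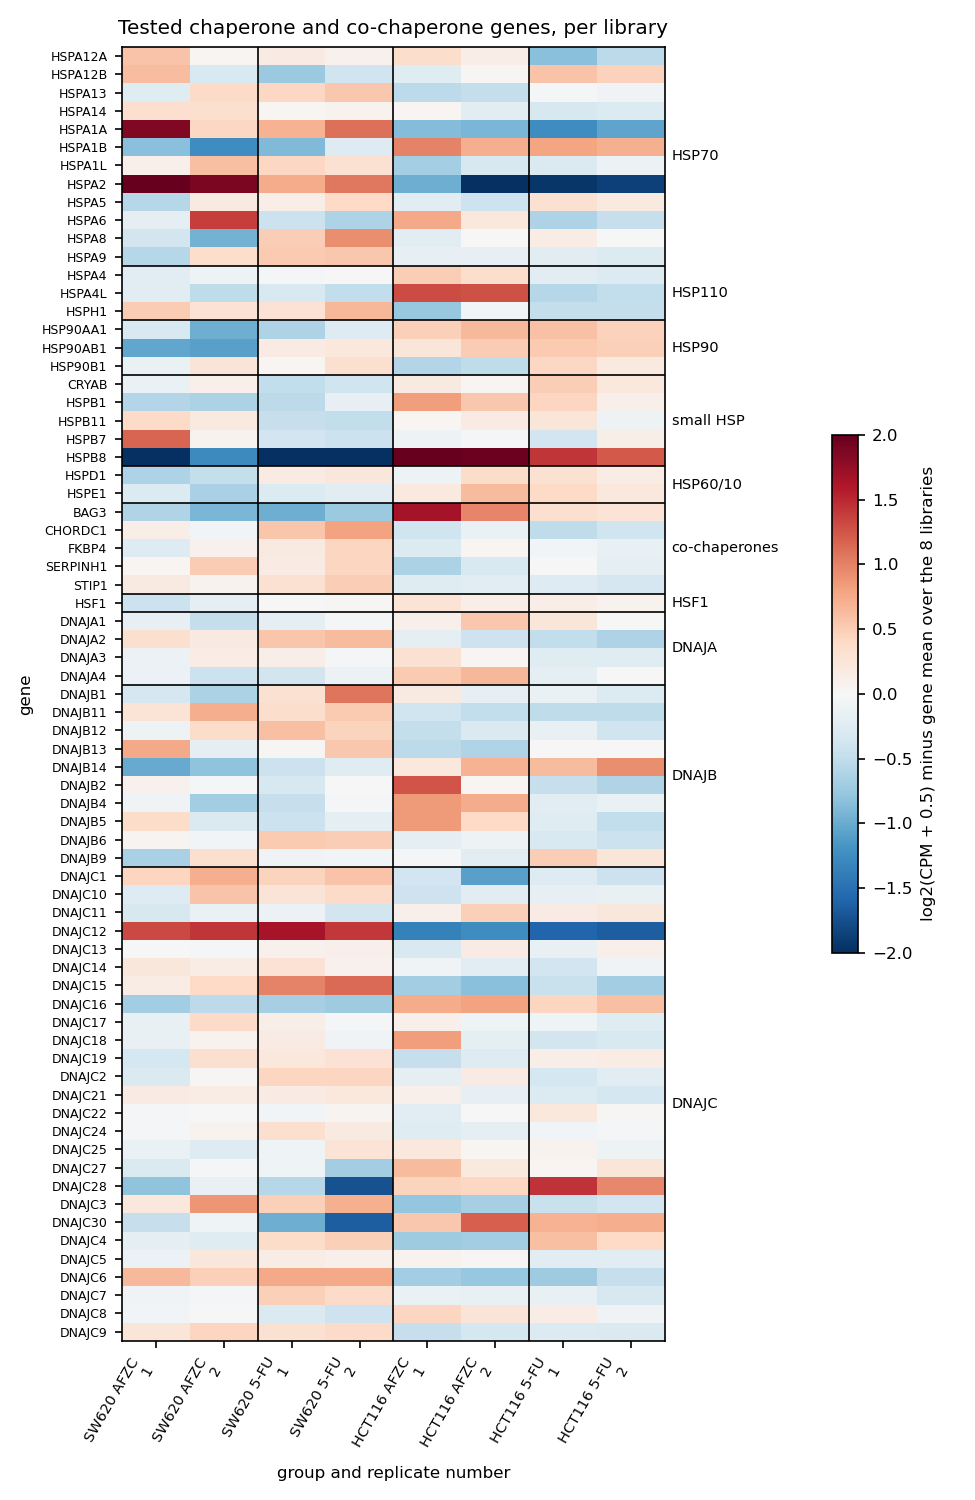
Level of the 71 tested members in each of the 8 libraries, as log2(CPM + 0.5) minus the gene's mean over the libraries, grouped by family. Red is above and blue below the gene's mean, and colours stop at 2 on either side. HSPA4L and BAG3 stand out in both libraries of HCT116 under AFZC, HSP90AB1 is low in both libraries of SW620 under AFZC, and HSPA2, DNAJC12 and HSPB8 separate the lines.

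In SW620 several abundant chaperones were lower under AFZC than under 5-FU. HSPA8, HSP90AB1 and the J-domain protein DNAJB1 were lower by more than 1 on the log2 scale, and HSPD1, CHORDC1 and 5 further J-domain genes were lower by smaller steps. In all, 10 of the 71 tested members were lower and 4 were higher, beside 6.95% of all tested genes lower and 11.6% higher. The median log2 fold change was -0.09 over the members and 0.03 over all tested genes.

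HSPA8 had 1011 and 681 CPM in SW620 under AFZC, against 1831 and 2497 CPM in SW620 under 5-FU (log2 fold change -1.36 ± 0.23 (SE), adjusted p = 0.00162). Its gene lies at chr11:123057489-123063230 on the minus strand of GRCh38, and 3.61% of its exon length overlaps the small nucleolar RNA genes SNORD14C and SNORD14D. HSP90AB1, at chr6:44246166-44253888 on the plus strand, had 848 and 819 CPM in SW620 under AFZC, against 1952 and 2012 CPM in SW620 under 5-FU (log2 fold change -1.25 ± 0.18 (SE), adjusted p = 6.16e-04). Both AFZC libraries lay below both 5-FU libraries for these genes. HSPA8 and HSP90AB1 were the only members of the 14 called in SW620 whose call held without each of the 8 libraries in turn, with log2 fold changes between -1.66 and -1.10 for HSPA8 and between -1.27 and -1.22 for HSP90AB1. The inducible HSP90AA1 had 1379 and 862 CPM in SW620 under AFZC, against 1113 and 1418 CPM in SW620 under 5-FU, and these values overlapped (log2 fold change -0.18 ± 0.23 (SE), adjusted p = 0.649). Summed per kilobase, the 3 HSP90 genes gave 707.6 and 651 CPM per kb in SW620 under AFZC, against 1049 and 1166 CPM per kb in SW620 under 5-FU.

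DNAJB1, the J-domain protein that works with HSPA8 and the inducible HSP70s, lies at chr19:14514770-14529770 on the minus strand and had 167 and 135 CPM in SW620 under AFZC, against 259 and 440.1 CPM in SW620 under 5-FU (log2 fold change -1.21 ± 0.23 (SE), adjusted p = 0.00378). The groups did not overlap, but the 2 libraries under 5-FU differed widely, and without SW620 5-FU replicate 2 the adjusted p was 0.0519. DNAJC15, a J-domain protein of the mitochondrial inner membrane, had 30.9 and 36.8 CPM in SW620 under AFZC, against 55.7 and 61.9 CPM in SW620 under 5-FU (log2 fold change -0.80 ± 0.17 (SE), adjusted p = 0.00753). DNAJC4 was the only member called in both lines, lower in each, and had 13.9 and 13.3 CPM in SW620 under AFZC, against 20.6 and 22.3 CPM in SW620 under 5-FU (log2 fold change -0.65 ± 0.19 (SE), adjusted p = 0.0339). DNAJC2, which sits at the ribosome with HSPA14, had 24.2 and 30.1 CPM in SW620 under AFZC, against 40.3 and 40.1 CPM in SW620 under 5-FU (log2 fold change -0.57 ± 0.18 (SE), adjusted p = 0.0493). DNAJB6, known for holding back polyglutamine aggregates, had 135 and 126 CPM in SW620 under AFZC, against 187 and 182 CPM in SW620 under 5-FU (log2 fold change -0.50 ± 0.14 (SE), adjusted p = 0.0279). DNAJC7, whose TPR domains bind both HSP70 and HSP90, had 55.4 and 56.8 CPM in SW620 under AFZC, against 80.9 and 76.1 CPM in SW620 under 5-FU (log2 fold change -0.48 ± 0.14 (SE), adjusted p = 0.0337). In each of these genes the groups did not overlap. Their calls rested on few libraries: without 1 library the adjusted p reached 0.0861 for DNAJC15 (5-FU replicate 2 or AFZC replicate 1), 0.207 for DNAJC4, 0.262 for DNAJC2, 0.144 for DNAJB6 and 0.185 for DNAJC7. For DNAJC4 and DNAJC7 the call was lost without any one of the SW620 libraries or of the HCT116 5-FU libraries, for DNAJB6 without any SW620 library, and for DNAJC2 without the 4 5-FU libraries in turn or SW620 AFZC replicate 1. Part of the exons of DNAJC4 (13.9%), DNAJC2 (9.57%) and DNAJC7 (9.44%) is shared with neighbouring genes, whose reads the libraries, made without strand, cannot keep apart.

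CHORDC1, an HSP90 co-chaperone that is itself heat-inducible, had 122 and 107 CPM in SW620 under AFZC, against 163 and 194 CPM in SW620 under 5-FU (log2 fold change -0.64 ± 0.16 (SE), adjusted p = 0.0148). Its call was lost without SW620 5-FU replicate 2 or AFZC replicate 2, with an adjusted p of up to 0.165. HSPD1, the chaperonin of the mitochondrial matrix, had 465 and 508 CPM in SW620 under AFZC, against 792 and 833 CPM in SW620 under 5-FU (log2 fold change -0.74 ± 0.19 (SE), adjusted p = 0.0172), and its call was lost without either 5-FU library or AFZC replicate 1, with an adjusted p of up to 0.116. HSPE1, the lid of that chaperonin, shares a promoter region with HSPD1 and had 18.4 and 14.1 CPM in SW620 under AFZC, against 18.4 and 18.9 CPM in SW620 under 5-FU (log2 fold change -0.20 ± 0.21 (SE), adjusted p = 0.549). For HSPE1 23.9% of the exon length overlaps other genes, and 17% of its 100-base words also occur elsewhere in the transcriptome. HSPA9, the HSP70 of the mitochondrial matrix, had 285 and 540.4 CPM in SW620 under AFZC, against 606 and 614 CPM in SW620 under 5-FU (log2 fold change -0.56 ± 0.24 (SE), adjusted p = 0.117), with the AFZC libraries far apart.

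The 4 members called higher in SW620 were HSPA2, HSPA6, DNAJC30 and HSPB11. HSPA2, an HSP70 known for its role in the testis, had 206 and 87.7 CPM in SW620 under AFZC, against 39.2 and 49.2 CPM in SW620 under 5-FU (log2 fold change 1.73 ± 0.44 (SE), adjusted p = 0.0301). The AFZC libraries differed by more than the 5-FU libraries did, and without AFZC replicate 1 the log2 fold change was 0.99. Its call was also lost without either SW620 5-FU library or either HCT116 5-FU library, with an adjusted p of up to 0.203. HSPA6, an HSP70 that is nearly silent without stress, had 60 counts over the 2 libraries of SW620 under AFZC and 2 counts over the 2 libraries of SW620 under 5-FU, a ratio of 26.1 (95% exact binomial interval 6.92 to 221, counting error only). By library it had 0.169 and 1.51 CPM in SW620 under AFZC, against 0.0689 and 0 CPM in SW620 under 5-FU (log2 fold change 4.54 ± 1.37 (SE), adjusted p = 0.0363), so most of these counts lay in AFZC replicate 2, and without that library the log2 fold change was 2.25 with an adjusted p of 0.409. Leaving out either SW620 5-FU library or HCT116 5-FU replicate 1 ended the HSPA6 call too. Reads of HSPA6 can also be assigned to its pseudogene HSPA7, with which it shares 27.6% of its 100-base words. DNAJC30, a small J-domain protein of mitochondria, had 1.89 and 2.57 CPM in SW620 under AFZC, against 1.17 and 0.544 CPM in SW620 under 5-FU (log2 fold change 1.39 ± 0.44 (SE), adjusted p = 0.0433), and 14.4% of its exon length overlaps BUD23. Without 1 library its adjusted p reached 0.317, and the call was lost without SW620 5-FU replicate 2, SW620 AFZC replicate 2 or either HCT116 5-FU library. HSPB11, a component of intraflagellar transport despite its name, had 25.8 and 22.7 CPM in SW620 under AFZC, against 14.1 and 13.9 CPM in SW620 under 5-FU (log2 fold change 0.79 ± 0.20 (SE), adjusted p = 0.0151), with a call that ended without either 5-FU library or AFZC replicate 1 (adjusted p up to 0.111).

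The SW620 libraries also differed in composition. TMM factors were 1.111 and 1.073 in SW620 under AFZC and 0.867 and 0.816 in SW620 under 5-FU, and 27591 and 26597 genes had counts under AFZC against 24744 and 24427 under 5-FU. With library sizes in place of TMM factors the median of all tested genes shifted by 0.375 on the log2 scale in SW620, and 3 members were lower and 10 higher. HSPA8 (-0.97), HSP90AB1 (-0.87) and DNAJB1 (-0.82) were the 3 lower ones. The keratin and VWF levels given above moved with the same groups. The part of these values in the chaperone differences was not tested. Of the counts that left out 1 library, the number of members lower was 2 without 5-FU replicate 2, 4 without AFZC replicate 1 and 6 without 5-FU replicate 1, and the number higher was 0 without 5-FU replicate 2, 2 without 5-FU replicate 1, and 1 and 2 without HCT116 5-FU replicates 1 and 2.

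In HCT116, 8 members were higher under AFZC than under 5-FU, and HSPA8, HSP90AB1 and HSP90AA1 were not called. HSPA4L was 3.58 times as high, and HSPA4, BAG3, HSPA12A, DNAJA4, DNAJB2, DNAJB4 and DNAJB5 were higher as well. HSP90B1 of the endoplasmic reticulum and DNAJC4 were lower. This made 8 higher and 2 lower of 71 tested members, beside 5.87% of all tested genes higher and 3.74% lower. The median log2 fold change was 0.11 over the members and 0 over all tested genes.

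HSPA4L, an HSP110 protein that exchanges nucleotide on HSP70, had 142 and 139 CPM in HCT116 under AFZC, against 38.1 and 40.2 CPM in HCT116 under 5-FU (log2 fold change 1.84 ± 0.16 (SE), adjusted p = 4.42e-05). The gene lies at chr4:127781821-127840733 on the plus strand of GRCh38. The 2 AFZC libraries were nearly equal and lay far above the 2 5-FU libraries, and the call held without each of the 8 libraries in turn, with log2 fold changes between 1.80 and 1.86. HSPA4, its close relative, had 383 and 346 CPM in HCT116 under AFZC, against 237 and 226 CPM in HCT116 under 5-FU (log2 fold change 0.66 ± 0.15 (SE), adjusted p = 0.0165). The third HSP110 gene, HSPH1, had 102 and 167 CPM in HCT116 under AFZC, against 125 and 125 CPM in HCT116 under 5-FU (log2 fold change 0.11 ± 0.22 (SE), adjusted p = 0.828), with an overlap between the groups. Of the 3 HSP110 genes, 2 were called higher in HCT116, beside 5.87% of all tested genes. None of the 3 was called in SW620, beside 11.6% higher and 6.95% lower of all tested genes. The call of HSPA4 in HCT116 depended on single libraries, as given below.

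BAG3, which joins HSP70 to small heat shock proteins and to autophagy, lies at chr10:119651370-119677819 on the plus strand and had 279 and 172 CPM in HCT116 under AFZC, against 109 and 105 CPM in HCT116 under 5-FU (log2 fold change 1.07 ± 0.21 (SE), adjusted p = 0.00782). HSPA12A, a distant HSP70 relative, had 128 and 109.9 CPM in HCT116 under AFZC, against 56 and 69.4 CPM in HCT116 under 5-FU (log2 fold change 0.92 ± 0.19 (SE), adjusted p = 0.00961). Both genes had no overlap between the groups, although AFZC replicate 1 of BAG3 stood well above replicate 2. HSPB8, the small heat shock protein that binds BAG3, had 16.3 and 7.85 CPM in HCT116 under AFZC, against 5.27 and 4.55 CPM in HCT116 under 5-FU (log2 fold change 1.30 ± 0.62 (SE), adjusted p = 0.234). Among J-domain genes, DNAJB4 had 38.5 and 35.6 CPM in HCT116 under AFZC, against 18 and 19.1 CPM in HCT116 under 5-FU (log2 fold change 1.002 ± 0.23 (SE), adjusted p = 0.0177). DNAJB5, like DNAJB4 a relative of DNAJB1, had 21.9 and 15.8 CPM in HCT116 under AFZC, against 9.97 and 8.31 CPM in HCT116 under 5-FU (log2 fold change 1.04 ± 0.28 (SE), adjusted p = 0.0312). DNAJA4, a heat-inducible class A protein, had 88.8 and 97.6 CPM in HCT116 under AFZC, against 54.3 and 62.1 CPM in HCT116 under 5-FU (log2 fold change 0.68 ± 0.17 (SE), adjusted p = 0.0227). In these 3 genes both AFZC libraries lay above both 5-FU libraries. DNAJB2, whose ubiquitin-binding motifs send clients to the proteasome, had 166 and 71.1 CPM in HCT116 under AFZC, against 49.7 and 45.3 CPM in HCT116 under 5-FU (log2 fold change 1.32 ± 0.32 (SE), adjusted p = 0.0301). It was far higher in AFZC replicate 1 than in replicate 2, and without replicate 1 the log2 fold change was 0.57. DNAJB1 itself had 238 and 187 CPM in HCT116 under AFZC, against 191 and 175 CPM in HCT116 under 5-FU (log2 fold change 0.22 ± 0.23 (SE), adjusted p = 0.619).

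HSP90B1, the HSP90 of the endoplasmic reticulum, lies at chr12:103930107-103953645 on the plus strand and had 551 and 583 CPM in HCT116 under AFZC, against 1101 and 949.9 CPM in HCT116 under 5-FU (log2 fold change -0.85 ± 0.19 (SE), adjusted p = 0.0157). HSPA5, its HSP70 counterpart, had 544 and 476 CPM in HCT116 under AFZC, against 782 and 714 CPM in HCT116 under 5-FU (log2 fold change -0.55 ± 0.23 (SE), adjusted p = 0.146), again with no overlap but without a call. DNAJC4 had 9.54 and 9.63 CPM in HCT116 under AFZC, against 24.3 and 21.1 CPM in HCT116 under 5-FU (log2 fold change -1.25 ± 0.20 (SE), adjusted p = 0.00239), the largest drop called in HCT116. The abundant cytosolic pair did not pass the test: HSP90AB1 had 2053 and 2486 CPM in HCT116 under AFZC, against 2491 and 2432 CPM in HCT116 under 5-FU (log2 fold change -0.12 ± 0.18 (SE), adjusted p = 0.757). HSPA8 had 1112 and 1299 CPM in HCT116 under AFZC, against 1443 and 1304 CPM in HCT116 under 5-FU (log2 fold change -0.19 ± 0.23 (SE), adjusted p = 0.672). HSP90AA1 had 2376 and 2659 CPM in HCT116 under AFZC, against 2542 and 2338 CPM in HCT116 under 5-FU (log2 fold change 0.05 ± 0.23 (SE), adjusted p = 0.95). HSPA6 had 44 counts over the 2 libraries of HCT116 under AFZC and 2 over those of HCT116 under 5-FU, a ratio of 21 (95% exact binomial interval 5.47 to 179), with an adjusted p of 0.0732.

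Single libraries decided most of the HCT116 calls. BAG3, DNAJB4, DNAJB5, HSPA4 and HSP90B1 lost theirs without either 5-FU library or AFZC replicate 1, with adjusted p of up to 0.098, 0.177, 0.23, 0.128 and 0.157 in that order. HSPA12A lost its call without 5-FU replicate 1 or AFZC replicate 1 (adjusted p up to 0.149), DNAJA4 without any one of the HCT116 libraries (up to 0.226), and DNAJC4 without 5-FU replicate 1 (0.0531). DNAJB2 lost its call without any library but HCT116 AFZC replicate 2 (up to 0.189) and in a fit of the HCT116 libraries alone (0.103). The count of members higher was 1, 2 and 1 without 5-FU replicate 1, 5-FU replicate 2 and AFZC replicate 1, and the count lower was 0, 1 and 1 without the same libraries and 4 without either AFZC library of SW620.

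**Figure D3:**
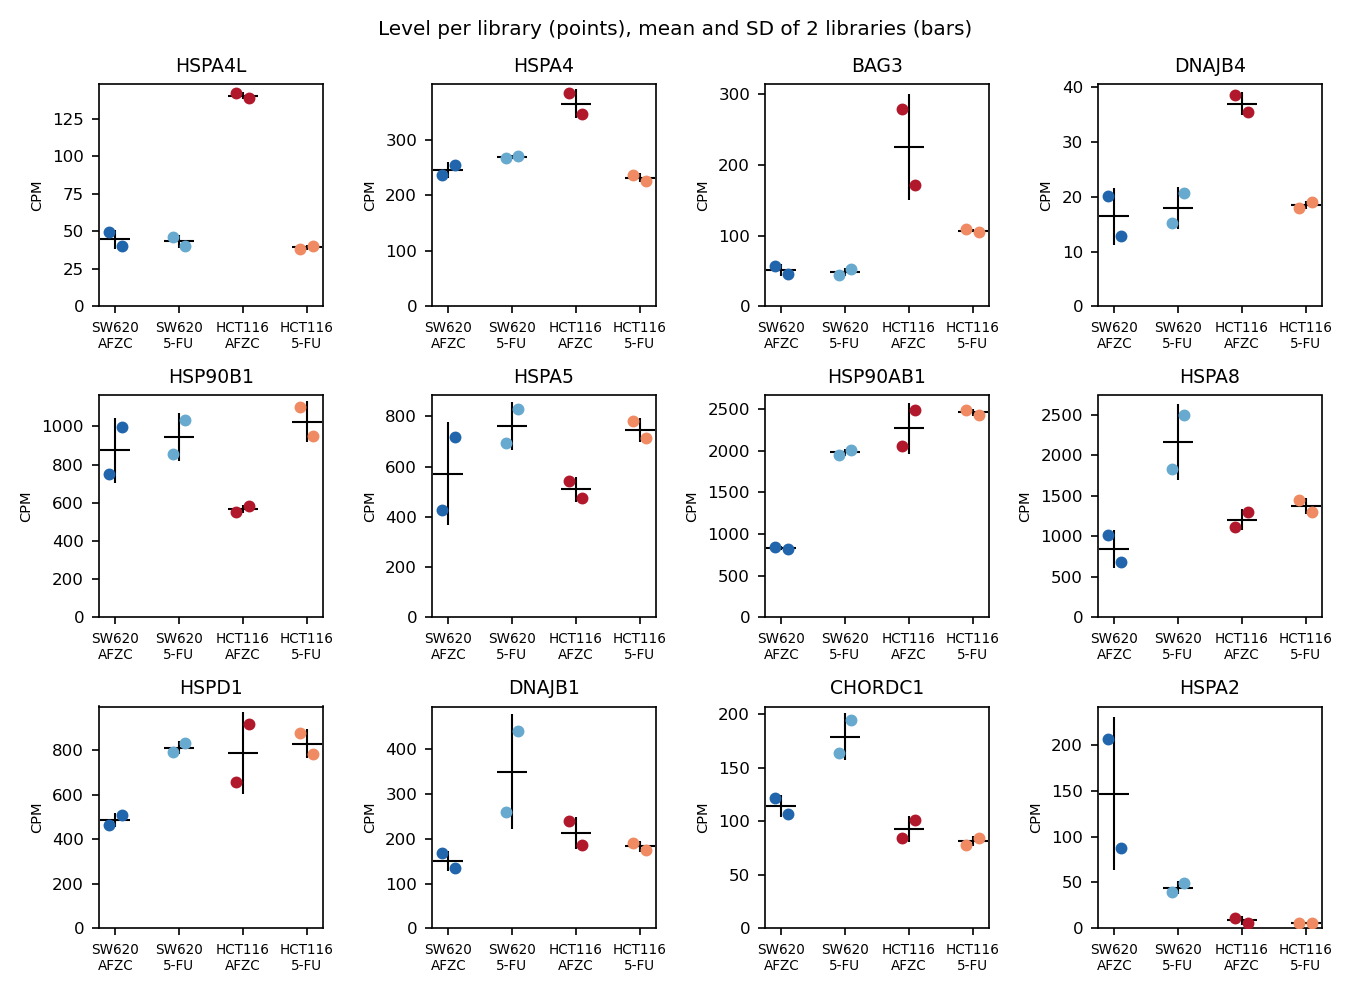
CPM of selected members in each library (points) with the mean and SD of the 2 libraries of a group (bars), on axes that start at 0. HSPA4L is high in both libraries of HCT116 under AFZC (142 and 139 CPM) and between 38.1 and 49.1 CPM elsewhere, whereas HSP90AB1 is low in both libraries of SW620 under AFZC (848 and 819 CPM) and at 1952 CPM or more elsewhere.

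Whether AFZC acted differently in the 2 lines was tested as the difference of the log2 fold changes, SW620 minus HCT116. In all, 8 of the 71 members had a lower effect in SW620 and 0 a higher one, beside 4.14% and 5.65% of all tested genes. At an unadjusted p under 0.05, 18 were lower and 5 higher, and DESeq2 called 11 lower and 1 higher. The 8 were HSPA4L, HSPA4, HSPA8, HSP90AB1, DNAJB1, DNAJB4, DNAJB6 and CHORDC1. The median difference was -0.19 over the members and 0.04 over all tested genes.

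HSPA4L differed most, by -1.80 ± 0.22 (SE, adjusted p = 5.20e-04). It had 49.1 and 39.8 CPM in SW620 under AFZC, against 46.1 and 40.3 CPM in SW620 under 5-FU, so that the SW620 groups overlapped. This difference held without each library in turn, between -1.93 and -1.63. DNAJB1 differed by -1.43 ± 0.33 (SE, adjusted p = 0.0173), HSPA8 by -1.17 ± 0.32 (SE, adjusted p = 0.0368) and HSP90AB1 by -1.13 ± 0.25 (SE, adjusted p = 0.015). These 3 genes were called in SW620, and in HCT116 their log2 fold changes were 0.22, -0.19 and -0.12 in that order. DNAJB4 differed by -1.13 ± 0.33 (SE, adjusted p = 0.0479) and HSPA4 by -0.79 ± 0.21 (SE, adjusted p = 0.0345), and in SW620 their log2 fold changes were -0.13 and -0.13. CHORDC1 differed by -0.84 ± 0.23 (SE, adjusted p = 0.0348) and DNAJB6 by -0.73 ± 0.20 (SE, adjusted p = 0.0365), with HCT116 values of 0.20 and 0.24. BAG3 missed the threshold with -0.97 ± 0.30 (SE, adjusted p = 0.0574).

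Other than HSPA4L, each of these differences lost its call without at least 1 library. Without HCT116 5-FU replicate 1 or replicate 2 every one of the other 7 was lost, with adjusted p over all left-out libraries of up to 0.0864 for DNAJB1, 0.0729 for HSP90AB1 and 0.177 for HSPA8, and of up to 0.173 for CHORDC1, 0.148 for DNAJB6, 0.14 for HSPA4 and 0.207 for DNAJB4. Without SW620 5-FU replicate 2 the same 7 were lost. With library sizes in place of TMM factors, which moved the median of all genes by 0.354, 2 members differed in the lower direction (HSPA4L and DNAJB1) and 4 in the higher direction.

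**Figure D4:**
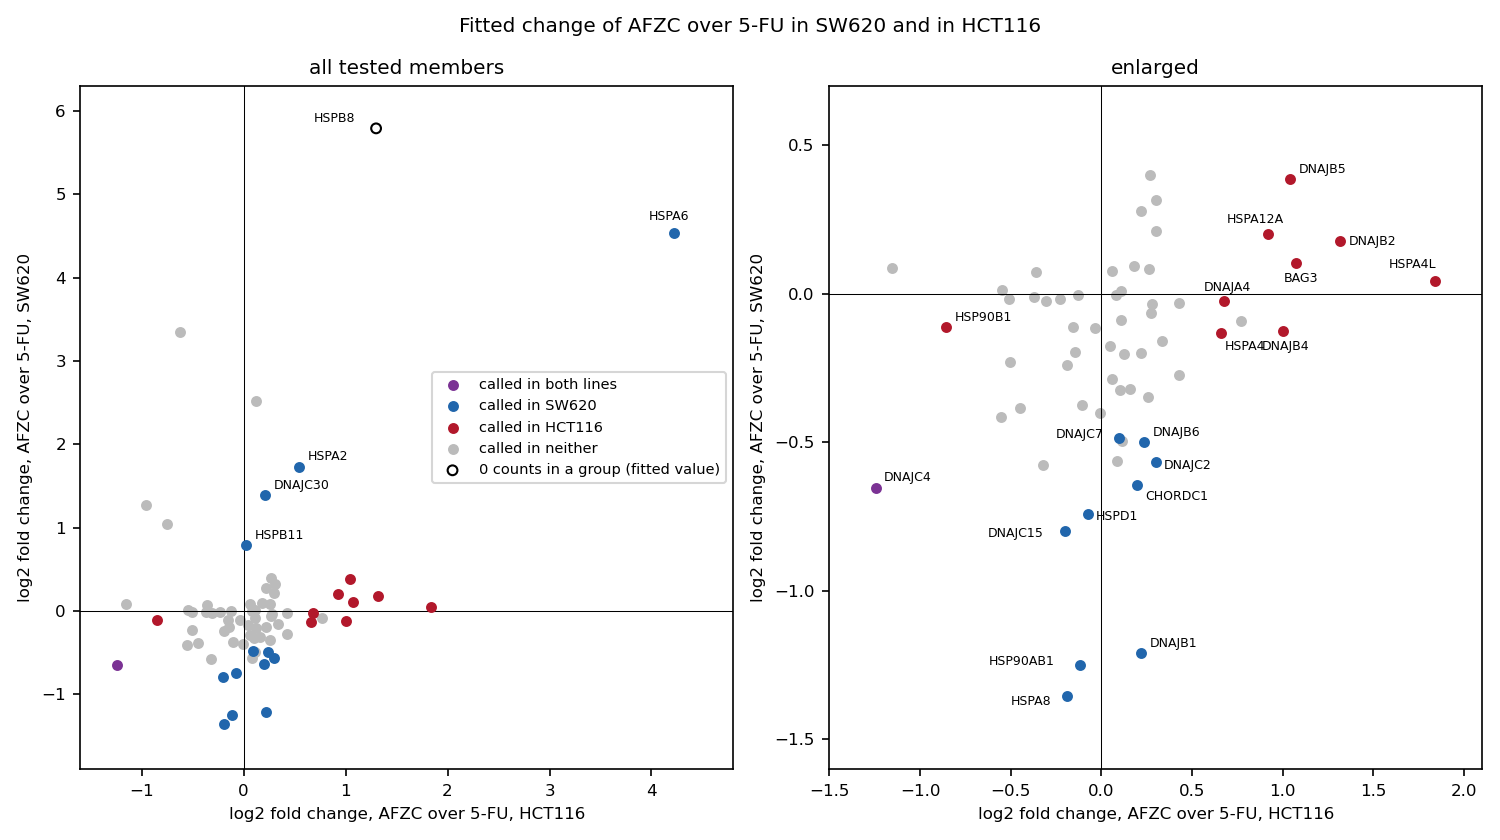
Log2 fold change of AFZC over 5-FU in HCT116 (horizontal) and in SW620 (vertical) for the 71 tested members, with the crowded region enlarged on the right. Colours show the line in which a gene was called, and the open circle is HSPB8, whose fitted value rests on a group with 0 counts. HSPA6, called in SW620 alone, lies high on both axes (4.54 in SW620 and 4.22 in HCT116). DNAJC4 is the only gene called in both.

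Of the 20 heat-inducible members, a list of textbook HSF1 targets drawn up with earlier results known, 5 were lower and 1 higher in SW620, beside 6.95% and 11.6% of all tested genes, with a median log2 fold change of -0.20. The lower ones were HSPA8, HSP90AB1, DNAJB1, HSPD1 and CHORDC1 and the higher one was HSPA6. Of these, only the calls of HSPA8 and HSP90AB1 held without each library in turn, and both are the constitutive forms named above. The other 14 on the list, among them HSPA1A, HSPA1B, HSP90AA1, HSPH1, HSPB1, DNAJA1 and BAG3, were not called in SW620. In HCT116, 3 of the 20 were higher (HSPA4L, BAG3 and DNAJA4) and 0 lower, beside 5.87% and 3.74% of all tested genes, with a median of 0.12. For the difference 5 of 20 were lower (median -0.52), beside 4.14% of all tested genes. With library sizes alone the SW620 median turned to 0.18, with HSPA8, HSP90AB1 and DNAJB1 lower and HSPA6 and CRYAB higher, and the HCT116 calls were the same 3 genes. HSF1 itself had 85.9 and 101 CPM in SW620 under AFZC, against 116 and 117 CPM in SW620 under 5-FU (log2 fold change -0.32 ± 0.15 (SE), adjusted p = 0.148). HSF1 also had 140.1 and 127 CPM in HCT116 under AFZC, against 127 and 122 CPM in HCT116 under 5-FU (log2 fold change 0.10 ± 0.15 (SE), adjusted p = 0.728). HSPB1, a small heat shock protein and HSF1 target, had 169 and 164 CPM in SW620 under AFZC, against 177 and 226 CPM in SW620 under 5-FU, and 457 and 370.4 CPM in HCT116 under AFZC, against 343 and 272 CPM in HCT116 under 5-FU (adjusted p = 0.331 and 0.165). DNAJA1, a J-domain partner of HSPA8, had 161 and 129.5 CPM in SW620 under AFZC, against 159 and 175 CPM in SW620 under 5-FU, and 194 and 262 CPM in HCT116 under AFZC, against 213 and 179 CPM in HCT116 under 5-FU (adjusted p = 0.498 and 0.513). With library sizes alone the SW620 values of HSF1, HSPB1 and DNAJA1 turned to 0.05, 0.11 and 0.18.

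Of the 9 members with an exact match to the heat shock element, 5 were called lower in SW620 under AFZC and 1, HSPA6, higher. Beside them, 6.95% of all tested genes were lower and 11.6% higher. The median log2 fold change of the 9 was -0.50. In HCT116 none of the 9 was called, beside 5.87% higher and 3.74% lower of all tested genes, and their median was 0.05. The search was made with the SW620 calls known, so these counts are a description only. With library sizes in place of TMM factors, HSPA8 and HSP90AB1 alone of the 5 stayed called lower in SW620. DNAJA1, HSP90AA1 and SERPINH1 carried the element and passed the test in neither line.

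The 14 members of the endoplasmic reticulum gave 0 calls in SW620 and 1 in HCT116, HSP90B1, with medians of -0.10 and -0.32, of which the first turned to 0.27 with library sizes alone. HSPA5 had 428 and 718 CPM in SW620 under AFZC, against 695 and 831 CPM in SW620 under 5-FU (log2 fold change -0.41 ± 0.23 (SE), adjusted p = 0.227). HSP90B1 had 753 and 996 CPM in SW620 under AFZC, against 855 and 1035 CPM in SW620 under 5-FU (log2 fold change -0.11 ± 0.19 (SE), adjusted p = 0.741). In SW620 both genes overlapped between the groups. DNAJB9, which acts on HSPA5 and is a target of the unfolded protein response, had 10.8 and 21.5 CPM in SW620 under AFZC, against 16.3 and 16.4 CPM in SW620 under 5-FU, and 16.6 and 14.7 CPM in HCT116 under AFZC, against 24.2 and 20.3 CPM in HCT116 under 5-FU (log2 fold changes -0.02 and -0.51, adjusted p = 0.99 and 0.285). SERPINH1, the collagen chaperone, had 111 and 153 CPM in SW620 under AFZC, against 121 and 145 CPM in SW620 under 5-FU, and 69.2 and 87.1 CPM in HCT116 under AFZC, against 108 and 94.4 CPM in HCT116 under 5-FU (log2 fold changes -0.01 and -0.37, adjusted p = 0.993 and 0.246). The 8 mitochondrial members had 2 lower (HSPD1 and DNAJC15) and 1 higher (DNAJC30) in SW620, with a median of -0.22 that turned to 0.16 with library sizes alone, and 0 calls in HCT116, with a median of 0.10.

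The family and compartment counts stand beside 11.6% higher and 6.95% lower of all tested genes in SW620 and 5.87% higher and 3.74% lower in HCT116. By family, the 12 tested HSP70 genes gave 2 higher and 1 lower in SW620 (median 0.11) and 1 higher in HCT116 (median 0.10). The 4 DNAJA genes gave 0 calls in SW620 (median -0.11) and 1 higher in HCT116 (median 0.34), the 10 tested DNAJB genes 2 lower in SW620 (median -0.07) and 3 higher in HCT116 (median 0.14), and the 26 DNAJC genes 1 higher and 4 lower in SW620 (median -0.05) and 1 lower in HCT116 (median 0.09). The 3 HSP110 genes had medians of -0.09 and 0.66 and the 3 HSP90 genes medians of -0.18 and -0.12 in SW620 and HCT116. The 5 co-chaperones and collagen chaperones gave 1 lower in SW620 (CHORDC1, median -0.29) and 1 higher in HCT116 (BAG3, median 0.06). With library sizes alone the SW620 medians of the DNAJA, DNAJB, DNAJC, HSP110, HSP90 and co-chaperone groups all turned positive (0.09 to 0.33), and the HCT116 medians kept their signs. The 5 tested small heat shock proteins gave 1 higher in SW620, HSPB11, and 0 in HCT116, and their medians were 2.52 and 0.12. The first of these medians is 2.02 with HSPB8 set to its bound, and it comes from genes of few counts. CRYAB, the lens crystallin, had 14 counts over the libraries of SW620 under AFZC and 1 over those of SW620 under 5-FU, a ratio of 12.2 (95% exact binomial interval 1.85 to 515, adjusted p = 0.09), and HSPB7 had 67 against 10 counts (adjusted p = 0.0521).

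In all, 48 tested members were called in neither line nor in the difference. In the HSP70 family these were HSPA1A, HSPA1B, HSPA1L, HSPA5, HSPA9, HSPA12B, HSPA13 and HSPA14, with log2 fold changes between -0.56 and 1.05 in SW620 and between -0.76 and 0.27 in HCT116. Among J-domain genes they were DNAJA1, DNAJA2 and DNAJA3, then DNAJB9, DNAJB11, DNAJB12, DNAJB13 and DNAJB14, and 21 DNAJC genes: DNAJC1, DNAJC3, DNAJC5, DNAJC6, DNAJC8, DNAJC9, DNAJC10, DNAJC11, DNAJC12, DNAJC13, DNAJC14, DNAJC16, DNAJC17, DNAJC18, DNAJC19, DNAJC21, DNAJC22, DNAJC24, DNAJC25, DNAJC27 and DNAJC28. The 21 lay between -0.32 and 1.27 in SW620 and between -0.96 and 0.77 in HCT116. FKBP4, an immunophilin partner of HSP90, had 161 and 204 CPM in SW620 under AFZC, against 219.8 and 261 CPM in SW620 under 5-FU (adjusted p = 0.134). STIP1, which bridges HSP70 and HSP90, had 432 and 401 CPM in SW620 under AFZC, against 475 and 539.9 CPM in SW620 under 5-FU (adjusted p = 0.228). HSPH1 had 247 and 212 CPM in SW620 under AFZC, against 212 and 276 CPM in SW620 under 5-FU (log2 fold change -0.09 ± 0.22 (SE), adjusted p = 0.835).

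HSPA1A and HSPA1B, the 2 main heat-inducible HSP70 genes, stand next to each other at chr6:31815464-31817946 and chr6:31827735-31830255 and encode nearly the same protein. Of the 100-base words of HSPA1A, 69.9% also occur in HSPA1B, so counts of either gene are uncertain and their sum is safer. Summed, the pair had 95.9 and 46.5 CPM in SW620 under AFZC, against 57.9 and 83.6 CPM in SW620 under 5-FU, and 115.6 and 97.3 CPM in HCT116 under AFZC, against 99.4 and 95.4 CPM in HCT116 under 5-FU. The groups overlapped in both lines. Taken singly, HSPA1A had log2 fold changes of 0.40 in SW620 and 0.27 in HCT116 (adjusted p = 0.501 and 0.741), and HSPA1B of -0.50 and 0.12 (adjusted p = 0.123 and 0.802).

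The lines divided the pair differently. HSPA1A took 69.3% (95% exact binomial interval 67.7 to 70.9) and 52.4% (50 to 54.8) of the pair's counts in SW620 under AFZC and 51% (48.6 to 53.4) and 47% (45.2 to 48.9) in SW620 under 5-FU. It took 8.42% (7.61 to 9.28) and 9.58% (8.62 to 10.6) in HCT116 under AFZC and 7.42% (6.57 to 8.35) and 8.86% (7.93 to 9.87) in HCT116 under 5-FU. Every SW620 library lay far above every HCT116 library. The intervals cover counting error only and treat counts as independent. Genes with exactly 2 counts outnumbered those with exactly 1 by a factor of 1.68 to 1.84, so that the counts may not be independent and the intervals may be too narrow.

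**Figure D5:**
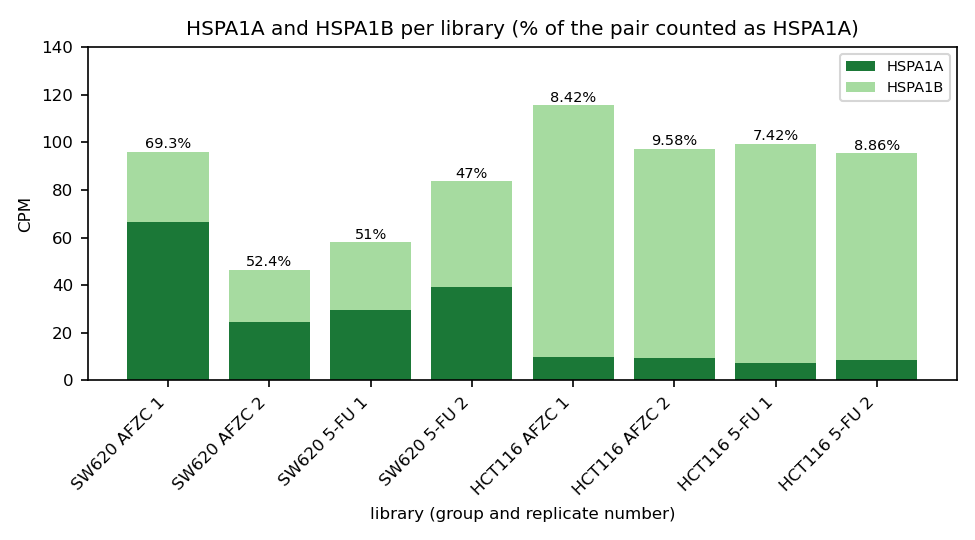
CPM of HSPA1A (dark) stacked on by HSPA1B (light) in each library, with the percentage of the pair's counts assigned to HSPA1A above each bar. HSPA1A holds 47% to 69.3% of the pair in the 4 SW620 libraries and 7.42% to 9.58% in the 4 HCT116 libraries.

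More members were called between the lines than between the agents. Under AFZC, 19 members were higher in SW620 than in HCT116 and 18 lower, and under 5-FU 23 were higher and 14 lower. These shares sit among 25.1% and 24.2% of all tested genes higher and lower under AFZC and 26.5% and 28.2% under 5-FU. The median log2 fold change of SW620 over HCT116 was 0.09 under AFZC and 0.22 under 5-FU over the members, and -0.01 and -0.04 over all tested genes. Since the 2 treatment comparisons and the 2 line comparisons reuse the same libraries, they are given side by side only.

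Among called members, the 5 with the largest fold changes towards SW620 under AFZC were HSPA2, DNAJC12, HSPA1A, DNAJB13 and HSPA1L. HSPA2 had 206 and 87.7 CPM in SW620 under AFZC, against 11.7 and 5.44 CPM in HCT116 under AFZC (log2 fold change 4.10 ± 0.49 (SE), adjusted p = 2.17e-04). DNAJC12, a partner of the aromatic amino acid hydroxylases, had 57.1 and 61.5 CPM in SW620 under AFZC, against 8.48 and 9.21 CPM in HCT116 under AFZC (log2 fold change 2.74 ± 0.17 (SE), adjusted p = 6.86e-08). HSPA1A, subject to the sharing of reads above, had 66.5 and 24.4 CPM in SW620 under AFZC, against 9.73 and 9.32 CPM in HCT116 under AFZC (log2 fold change 2.25 ± 0.39 (SE), adjusted p = 8.89e-04). DNAJB13, a protein of cilia and sperm tails, had 72 against 22 pooled counts (log2 fold change 1.75 ± 0.64 (SE), adjusted p = 0.0372), and HSPA1L, the HSP70 of spermatids, 85 against 32 (log2 fold change 1.44 ± 0.54 (SE), adjusted p = 0.0403). HSPA2, DNAJC12 and HSPA1A kept their calls without each library in turn, and DNAJB13 and HSPA1L did not (adjusted p up to 0.397 and 0.229).

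HSPB8, BAG3, HSPA1B, HSPA4L and HSP90AB1 had the 5 largest called fold changes towards HCT116 under AFZC, and all kept their calls without each library in turn. HSPB8 had 14 counts over the libraries of SW620 under AFZC and 899 over those of HCT116 under AFZC, a ratio of 0.0161 (95% exact binomial interval 0.00877 to 0.0272), all 14 of them in replicate 2. BAG3, its partner, had 57.3 and 45.9 CPM in SW620 under AFZC, against 279 and 172 CPM in HCT116 under AFZC (log2 fold change -2.13 ± 0.22 (SE), adjusted p = 4.50e-06). HSPA1B had 29.4 and 22.1 CPM in SW620 under AFZC, against 106 and 88 CPM in HCT116 under AFZC (log2 fold change -1.91 ± 0.22 (SE), adjusted p = 1.13e-05). This gene is also subject to the sharing of reads above, and 36.5% of its exon length overlaps AL671762.1. Summed, HSPA1A and HSPA1B had 95.9 and 46.5 CPM in SW620 under AFZC, against 115.6 and 97.3 CPM in HCT116 under AFZC. Values of HSPA4L and HSP90AB1 by library are given above, and the lines differed by -1.66 ± 0.16 (SE, adjusted p = 2.39e-06) for HSPA4L and -1.45 ± 0.18 (SE, adjusted p = 2.91e-05) for HSP90AB1.

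Under 5-FU, DNAJC12, HSPA2, HSPA1A, DNAJC15 and DNAJC6 had the 5 largest called fold changes towards SW620. DNAJC12 had 71.9 and 60.6 CPM in SW620 under 5-FU, against 7.18 and 6.85 CPM in HCT116 under 5-FU (log2 fold change 3.24 ± 0.18 (SE), adjusted p = 1.49e-08). HSPA2 had 39.2 and 49.2 CPM in SW620 under 5-FU, against 5.68 and 6.04 CPM in HCT116 under 5-FU (log2 fold change 2.92 ± 0.47 (SE), adjusted p = 0.00106), and HSPA1A had 29.5 and 39.3 CPM in SW620 under 5-FU, against 7.38 and 8.45 CPM in HCT116 under 5-FU (log2 fold change 2.12 ± 0.39 (SE), adjusted p = 0.00111). DNAJC15 had 55.7 and 61.9 CPM in SW620 under 5-FU, against 20.2 and 17.1 CPM in HCT116 under 5-FU (log2 fold change 1.66 ± 0.18 (SE), adjusted p = 5.68e-06). DNAJC6, the auxilin that strips clathrin coats in neurons, had 72.5 and 73 CPM in SW620 under 5-FU, against 25.8 and 30.8 CPM in HCT116 under 5-FU (log2 fold change 1.36 ± 0.16 (SE), adjusted p = 1.15e-05). In all 5 the libraries of the lines were far apart, and the calls held without each library in turn.

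The 5 largest called fold changes towards HCT116 under 5-FU were those of HSPB8, CRYAB, DNAJC28, DNAJC30 and HSPA12B. HSPB8 had 0 counts over the libraries of SW620 under 5-FU and 345 over those of HCT116 under 5-FU, so that it was at least 102-fold lower in SW620, taking 3 counts over the group as the floor. Within SW620, HSPB8 was at least 4.06-fold higher under AFZC, with 14 counts, than under 5-FU, against the same floor (adjusted p = 0.138). CRYAB had 1 against 28 counts, a ratio of 0.0404 (95% exact binomial interval 9.88e-04 to 0.244; log2 fold change -4.36 ± 1.22 (SE), adjusted p = 0.00882), with a call lost without HCT116 5-FU replicate 1 or SW620 5-FU replicate 1 (adjusted p up to 0.0698). DNAJC28 had 0.62 and 0 CPM in SW620 under 5-FU, against 4.04 and 2.75 CPM in HCT116 under 5-FU (log2 fold change -3.49 ± 0.89 (SE), adjusted p = 0.00643). DNAJC30 had 1.17 and 0.544 CPM in SW620 under 5-FU, against 4.81 and 4.91 CPM in HCT116 under 5-FU (log2 fold change -2.51 ± 0.44 (SE), adjusted p = 3.30e-04). HSPA12B had 0.895 and 1.27 CPM in SW620 under 5-FU, against 2.97 and 2.72 CPM in HCT116 under 5-FU (log2 fold change -1.39 ± 0.46 (SE), adjusted p = 0.0206). HSPA12B lost its call without either HCT116 5-FU library or SW620 5-FU replicate 1 (adjusted p up to 0.118). Of the 37 calls under each agent, 23 held without each library in turn. With library sizes alone the split under 5-FU was 17 higher and 22 lower, with the median of all genes moved by -0.299.

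Chaperones and stress genes outside the set were counted beside it. Their counts stand beside 11.6% higher and 6.95% lower of all tested genes in SW620 and 5.87% higher and 3.74% lower in HCT116. The 8 subunits of the TRiC/CCT chaperonin, which folds actin and tubulin, gave 4 lower in SW620 (median -0.43) and 0 calls in HCT116 (median 0.04). Among them CCT8 had 229.6 and 228 CPM in SW620 under AFZC, against 358 and 360.0 CPM in SW620 under 5-FU (log2 fold change -0.65 ± 0.15 (SE), adjusted p = 0.0104), and CCT4 had 212 and 247 CPM in SW620 under AFZC, against 344 and 359 CPM in SW620 under 5-FU (log2 fold change -0.61 ± 0.16 (SE), adjusted p = 0.0166). All 8 values were below 0 in SW620, but with library sizes alone 4 of 8 were, the median was -0.05 and 0 were called. Prefoldin, which hands clients to TRiC, had 1 of 6 lower in SW620, PFDN5 (log2 fold change -0.56, adjusted p = 0.0272, list median -0.34), and 0 in HCT116 (median 0.09). Of 12 further HSP90 co-chaperones 2 were lower in SW620 (median -0.18), PTGES3 at -0.54 and AHSA1 at -0.45 (adjusted p = 0.0376 and 0.0478), and 0 passed in HCT116 (median -0.13). Among 12 HSP70 partners and exchange factors 1 was lower in SW620, ST13, at -0.69 (adjusted p = 0.0111, list median -0.19), and 0 in HCT116 (median -0.08).

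Of 14 targets of the unfolded protein response, 0 were called in SW620 (median -0.15) and 1 in HCT116 (median -0.28), beside the shares of all tested genes just given. The called gene was PDIA3, a disulfide isomerase, which was lower (log2 fold change -0.64 ± 0.18 (SE), adjusted p = 0.0392). Across these lists every call in SW620 was lower and HCT116 had 1 call, but with library sizes alone 0 were called lower in SW620, 4 HSP90 co-chaperones, 4 targets of the unfolded protein response and BAG4 were higher, and the medians of all these lists but TRiC turned positive there.

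The 8 members left untested had few or no counts. DNAJB3, a processed pseudogene in the annotation, had 0 counts in every library. HSPB3 had 2 counts, both in HCT116 under AFZC. HSPA7, a pseudogene, had 0 counts in both SW620 groups, 1 in HCT116 under AFZC and 12 in HCT116 under 5-FU, and HSPB2 had 0, 0, 3 and 5 counts in the same groups. The remaining 4 had pooled counts per group of 2 to 10 for DNAJB7, 2 to 6 for DNAJB8, 1 to 19 for HSPB6 and 3 to 16 for HSPB9. They entered no test with the filter on low counts, and no difference is reported for them.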

How the data were processed

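RNA-seq of poly(A) RNA, prepared without strand, was measured in 8 libraries, and the authors deposited 1 table of raw counts of reads per gene with gene spans, per the file headers. The submitters' processing notes name the build GRCh38, the aligners STAR and HISAT2, FastQC, cutadapt, Trimmomatic and the counter featureCounts, with edgeR and DESeq2, and which aligner made the table is not given in the sources used here. From these counts, edgeR 4.0.16 (R 4.3.3) fitted 4 group means with TMM factors, robust quasi-likelihood dispersion and 4 residual degrees of freedom to the 21378 genes that passed filterByExpr at a minimum count of 10. Adjusted p-values are Benjamini-Hochberg over all tested genes, with a threshold of 0.05, and the fit was tested on simulated data. Gene spans of 78 members equal those of GENCODE 29. Exon lengths and overlaps came from the deposited table, and shared 100-base words from the GENCODE 29 transcripts. Promoter sequences came from RefSeq.

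The members and lists were chosen with earlier results of these data known. The text names every member called in a treatment comparison or in their difference, the 5 called members with the largest changes in each direction between the lines, and textbook members from a list of names. Depth was 31991561 to 40590291 counts per library. Same-numbered libraries of different groups correlated only weakly in their deviations (-0.19 to 0.131), and the fit has no block. Alternatives were DESeq2 1.42.0, RLE factors, library sizes alone, no filter, a replicate block, fits of only the groups compared, and leaving out each library.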

Additional observations from a re-analysis of the deposited data

Results flagged for a closer look

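The 8 results below are members whose AFZC effect differed between the lines, tested as the difference of the log2 fold changes (SW620 minus HCT116) in edgeR's quasi-likelihood fit over all 21378 tested genes. HSPA4L differed by -1.8 (adjusted p = 5.20e-04), being called higher under AFZC in HCT116 and not called in SW620. DNAJB1 differed by -1.43 (adjusted p = 0.0173), HSPA8 by -1.17 (0.0368), HSP90AB1 by -1.13 (0.015), CHORDC1 by -0.84 (0.0348) and DNAJB6 by -0.733 (0.0365), all called lower under AFZC in SW620 and not called in HCT116. DNAJB4 differed by -1.13 (adjusted p = 0.0479) and HSPA4 by -0.789 (0.0345), both called higher under AFZC in HCT116 and not called in SW620. The HSPA4L difference held without each of the 8 libraries in turn, and the other 7 were lost without either HCT116 5-FU library or SW620 5-FU replicate 2.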

How the results depend on the processing

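Calls in SW620 depended on the scaling: with library sizes alone the members called higher and lower under AFZC numbered 10 and 3, against 4 and 10 with TMM factors. The same scaling gave 4 members higher and 2 lower for the difference between the lines (0 and 8 with TMM factors) and 22 lower in SW620 against HCT116 under 5-FU (14). DESeq2 gave 1 higher member for the difference, and no filter on low counts gave 2. Fits of only the groups compared gave 2 higher in SW620 and 12 higher in SW620 against HCT116 under AFZC (19). The replicate block gave 2 higher in SW620 under AFZC and 6 lower for the difference. Same-numbered libraries correlated in their deviations by -0.19 to 0.131. With 2 libraries in each group, these values cannot show whether libraries of different groups were prepared together. Leaving out each library in turn gave 1 to 9 members higher and 0 to 4 lower in HCT116, 0 to 5 higher and 2 to 11 lower in SW620, 0 to 2 higher and 1 to 8 lower for the difference, 12 to 18 higher between the lines under AFZC, and 7 to 15 lower between them under 5-FU, where a library left alone in its group is assumed to vary like the other groups. HSPA8 and HSP90AB1 in SW620 and HSPA4L in HCT116 and in the difference kept their calls under every alternative run. Signs were followed for the genes named by rule in the treatment comparisons, not for all 71 tested members. Those whose log2 fold change changed sign were not called in that comparison. With library sizes alone these were, in SW620, DNAJA1 (0.18), DNAJA4 (0.36), DNAJB4 (0.26), DNAJB9 (0.35), HSF1 (0.0527), HSP90AA1 (0.21), HSP90B1 (0.27), HSPA4 (0.24), HSPB1 (0.11), HSPE1 (0.18), HSPH1 (0.30) and SERPINH1 (0.36). In a fit of the SW620 libraries alone they were DNAJB9 (0.000508) and SERPINH1 (0.009415). On leaving out a library the ranges that crossed 0 were, in SW620, BAG3 (-0.0584 to 0.26), DNAJA4 (-0.19 to 0.13), DNAJB4 (-0.48 to 0.16), DNAJB9 (-0.60 to 0.40), HSP90AA1 (-0.55 to 0.12), HSP90B1 (-0.33 to 0.0837), HSPA12A (-0.0778 to 0.44), HSPA1A (-0.49 to 0.95), HSPA4L (-0.11 to 0.19), HSPH1 (-0.26 to 0.11) and SERPINH1 (-0.26 to 0.21), and in HCT116, DNAJA1 (-0.0366 to 0.41), DNAJC30 (-0.22 to 0.52), DNAJC7 (-0.008655 to 0.18), HSP90AA1 (-0.0623 to 0.12), HSP90AB1 (-0.29 to 0.005278), HSPA1B (-0.033 to 0.22), HSPA2 (-0.12 to 0.97), HSPB11 (-0.16 to 0.21), HSPD1 (-0.36 to 0.14), HSPE1 (-0.14 to 0.32) and HSPH1 (-0.32 to 0.41). Apart from the scaling and the smaller number of libraries, the cause of these changes was not tested. With 4 residual degrees of freedom and few counts for HSPA6, DNAJC30, CRYAB and HSPB8, small changes and silent genes could not be resolved at this depth.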
